A study of Homo sapiens with 60 samples.

Results

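The genes described here make, import or charge amino acids, and 43 were taken by gene symbol from a list given for this work. All 43 were found among the 60675 genes of the count table, and all 43 passed the filter on low counts, which 17851 genes passed. The 43 divide by role into 6 genes of serine, glycine and mitochondrial one-carbon synthesis, 8 other synthesis genes, 8 transporters, 17 cytosolic tRNA synthetases and 4 further genes described elsewhere as targets of the transcription factor ATF4. The comparison throughout sets an extract's high dose against its own low dose.

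RNA was sequenced in 60 libraries, in 25 groups, of SW1783, 1 human astrocytoma line from the ATCC kept in Leibovitz's L-15 medium with fetal bovine serum, and every group shares that line, medium and a treatment of 24 h. Water extracts of Yijin-tang and Soshiho-tang, which are herbal formulas, and ethanol extracts of Zizyphi Semen, Longan Arillus and Liriopis seu Ophiopogonis Tuber were used at 500 (high), 100 (medium) and 20 µg/mL (low). Ethanol extracts of Schisandrae Fructus were given at 310, 62 and 12.4 µg/mL, of Polygalae Radix at 30, 6 and 1.2 µg/mL and of Aucklandiae Radix at 160, 32 and 6.4 µg/mL. Per the series' design text, extracts with an inhibitory concentration (IC20) below 500 µg/mL had that concentration as their high dose. The vehicle was dimethyl sulfoxide, labelled as 0.1%, while the design text names another percentage. Groups held 3 libraries, except Soshiho-tang with 2 per dose and Polygalae Radix and Aucklandiae Radix with 1 per dose. A library set here means libraries whose names share their first field, and the labels do not say what that field stands for. Nothing in the labels says that the libraries of a group came from separate cultures. The p-values measure the spread between libraries within groups, pooled over the replicated groups of a fit (19 in the main one). That spread may be technical.

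When amino acids run short, uncharged tRNAs activate the kinase GCN2, which phosphorylates the translation factor eIF2α. PERK, a kinase of the endoplasmic reticulum, phosphorylates the same factor when proteins misfold. General translation then slows while the mRNA of ATF4 is translated better, and ATF4 pairs with C/EBP proteins on composite C/EBP-ATF elements in the promoters of genes for amino acid synthesis, import and tRNA charging. Asparagine synthetase, ASNS, is the textbook target of this response.

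Promoter sequence is shown first because 14 of the 34 members with a RefSeq promoter window (GRCh38.p14, 250 bases before to 50 after a start) held the letters TGATGNAA on either strand, the core of that composite element. The motif was searched after the expression values were known, and it stood in 3.62% of 35116 windows and 4.46% of 27305 genes with a window. The stretches below are from 8 of the 14 members, chosen so that synthesis, transport and charging are each represented, written along the gene's strand with the motif, or its reverse complement, in capitals.
ASNS (chr7:97872458-97872487, minus strand): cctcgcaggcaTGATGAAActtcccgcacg
SLC3A2 (chr11:62881725-62881748, plus strand): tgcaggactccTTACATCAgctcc
SLC1A4 (chr2:64989381-64989410, plus strand): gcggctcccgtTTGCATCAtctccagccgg
SLC38A1 (chr12:46266502-46266531, minus strand): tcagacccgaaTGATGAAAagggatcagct
AARS1 (chr16:70289675-70289704, minus strand): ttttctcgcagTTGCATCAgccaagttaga
GARS1 (chr7:30594834-30594863, plus strand): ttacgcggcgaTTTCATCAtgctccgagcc
MARS1 (chr12:57488053-57488082, plus strand): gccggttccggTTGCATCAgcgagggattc
TARS1 (chr5:33440956-33440985, plus strand): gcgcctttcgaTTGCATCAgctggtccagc
The other 6 members with the motif were GOT1, SLC7A1, SLC1A5, CARS1, IARS1 and NARS1. No window was given for PSPH, SHMT2, ALDH1L2, PYCR1, GPT2, EIF4EBP1, LARS1, YARS1 and VARS1. A match of letters is a description of the sequence and does not show that a factor binds there.

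Libraries held between 18.73 M and 35.52 M expected counts (median 25.78 M), and levels are given as CPM (counts per M counts), which are shares of a library. In such bulk samples a change in the amount of RNA per cell and a change in the number of cells cannot be told apart. Of 23 cell type markers, 11 lay below the count filter, among them the astrocyte markers GFAP, S100B, AQP4 and ALDH1L1, whereas VIM, SOX9 and SLC1A3 were present. Neuronal markers summed to 40.8 to 41.5 CPM at the high dose of Soshiho-tang and 49.7 to 51.0 CPM at its low dose. For Schisandrae Fructus the sums were 22.8 to 27.6 CPM and 51.2 to 54.7 CPM. Epithelial markers summed to 13.0 to 14.4 CPM against 18.1 to 18.8 CPM with Soshiho-tang and 17.9 to 19.4 CPM against 15.0 to 16.6 CPM with Schisandrae Fructus. Microglial and blood markers summed to 224 to 241 CPM against 205 to 212 CPM and 255 to 266 CPM against 209 to 219 CPM, and astroglial markers to 5410 to 5590 CPM against 5150 to 5170 CPM and 4900 to 5230 CPM against 4640 to 4830 CPM. High and low libraries did not overlap in these 4 sums, and endothelial sums overlapped. Single astroglial (VIM, SLC1A3, SOX9, NES), neuronal (SNAP25, SYT1, RBFOX3) and microglial or blood markers (CD68, PTPRC, CSF1R) did not all follow their sums. With Schisandrae Fructus VIM (log2 fold change 0.13), CD68 (0.36) and RBFOX3 (1.04) rose (edgeR adjusted p under 0.05). SLC1A3 (-1.26), SOX9 (-0.67), NES (-0.43), SNAP25 (-1.22), SYT1 (-1.01), PTPRC (-2.25) and CSF1R (-1.08) fell there. With Soshiho-tang NES rose (0.33), and SLC1A3 (-0.85), SNAP25 (-0.66), PTPRC (-0.62) and CSF1R (-0.67) fell. VIM, SOX9, CD68, SYT1 and RBFOX3 did not pass with Soshiho-tang. The part of these shifts in the results below was not tested.

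The high dose of Soshiho-tang raised most of these genes. Of the 43, 35 rose and 0 fell against the low dose (edgeR adjusted p under 0.05), where 9.92% of all genes tested rose and 8.66% fell. The median log2 fold change was 0.59 over the 43 genes and 0 over all genes tested. The high dose of Schisandrae Fructus raised 37 and lowered 1, with a median of 0.40, where 22.3% of all genes rose and 23.6% fell. At the other 4 replicated extracts at most 6 of the 43 changed. The map of log2 fold changes shows the division between both extracts and the rest.

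**Figure D1:**
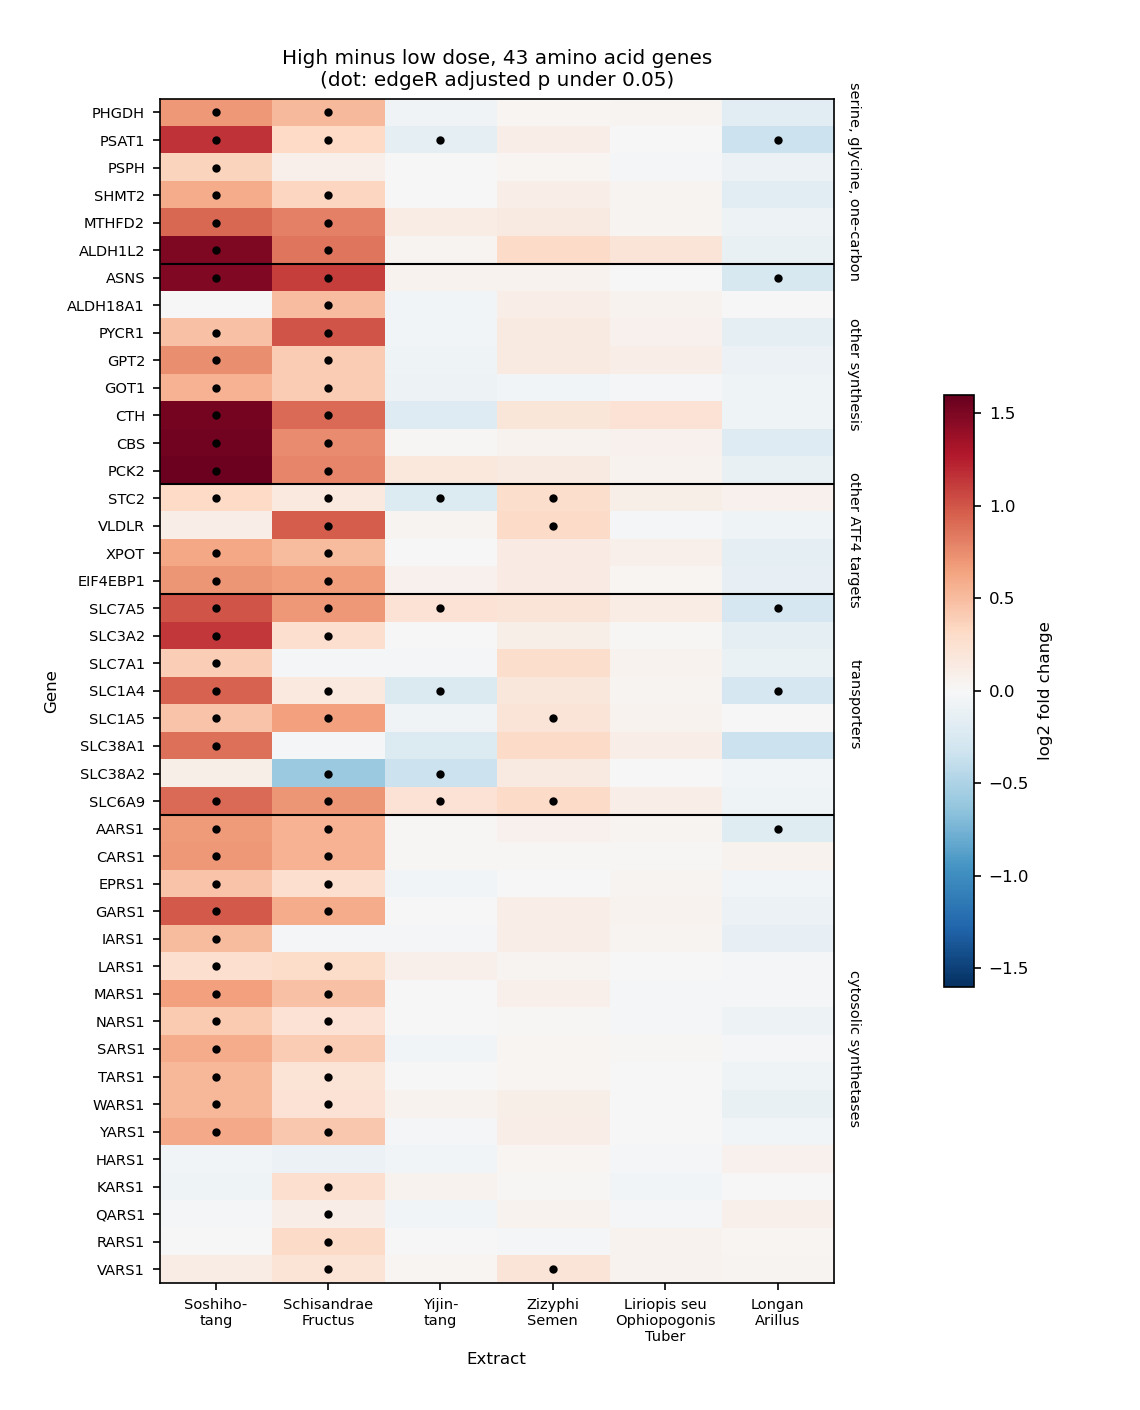
Log2 fold change from low to high dose (colour) for 43 genes (rows, grouped by role) in 6 replicated extracts (columns); a dot marks an edgeR adjusted p under 0.05. The first 2 columns hold 35 and 37 rises, and the other 4 columns hold 0 to 5 rises each.

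All 6 genes of serine, glycine and one-carbon synthesis rose with Soshiho-tang. PSAT1, the aminotransferase of serine synthesis, stood at 159 CPM in both high-dose libraries and at 70.5 and 71.3 CPM in the low-dose libraries. Both high libraries lay above both low ones, a log2 fold change of 1.16 ± 0.06 (SE, n = 2 per dose, edgeR adjusted p = 2.57e-19). PHGDH, which commits glycolytic carbon to serine, had 61.1 and 57.3 CPM against 37.0 and 36.0 CPM (log2 fold change 0.70 ± 0.09, edgeR adjusted p = 1.77e-07). ALDH1L2, the mitochondrial enzyme that oxidises formyl-tetrahydrofolate, rose 2.82-fold from 19.8 CPM in both low libraries to 54.0 and 57.8 CPM. MTHFD2, the mitochondrial one-carbon dehydrogenase, rose 1.89-fold, SHMT2, which moves a carbon from serine to folate in mitochondria, rose 1.51-fold, and PSPH, the last step of serine synthesis, rose 1.28-fold.

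Of the 8 other synthesis genes, 7 rose with Soshiho-tang and ALDH18A1 did not pass. ASNS (chromosome 7, 97852118 to 97872542, minus strand, GRCh38) makes asparagine, and its level was 163 and 155 CPM at the high dose against 60.9 and 53.4 CPM at the low dose. The groups did not overlap, and the log2 fold change was 1.48 ± 0.07 (edgeR adjusted p = 3.56e-20). PCK2, which makes phosphoenolpyruvate in mitochondria, had the largest log2 fold change of the 43 genes, 1.57 ± 0.10, from 12.0 and 11.9 CPM to 35.7 and 35.5 CPM. CBS and CTH, which carry sulfur from homocysteine to cysteine, rose 2.90-fold and 2.89-fold from low levels (7.48 and 5.63 CPM on average). CBS shares reads with a near-identical gene copy, CBSL, and with both copies summed the log2 difference was 1.55.

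GPT2, the mitochondrial alanine aminotransferase, rose 1.68-fold, and GOT1, the cytosolic aspartate aminotransferase, rose 1.46-fold. The proline branch was uneven. PYCR1, the last enzyme of proline synthesis, rose 1.39-fold with Soshiho-tang. ALDH18A1, the enzyme before it, stood at 115 and 116 CPM against 118 and 116 CPM. The interval of that log2 difference (2 SE either side) was -0.11 to 0.08.

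Among the 8 transporters, 7 rose with Soshiho-tang, both chains of the large neutral amino acid exchanger among them. SLC3A2, the shared heavy chain, had 351 and 348 CPM at the high dose against 161 and 158 CPM at the low dose (log2 fold change 1.13 ± 0.08, edgeR adjusted p = 4.67e-15). SLC7A5, its light chain for leucine and related amino acids, had 371 and 379 CPM against 192 and 180 CPM (1.01 ± 0.08, edgeR adjusted p = 6.7e-13). The high libraries of both genes lay well above the low ones, with folds of 2.19 and 2.02.

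SLC1A4, a carrier of alanine, serine and cysteine, rose 1.93-fold, and SLC6A9, a glycine transporter, rose 1.89-fold. SLC38A1, a sodium-coupled glutamine transporter, had 180 and 198 CPM against 103 CPM in both low libraries. SLC1A5, another glutamine carrier, had 415 CPM in both high libraries against 302 and 301 CPM. SLC7A1, the cationic amino acid transporter, rose 1.31-fold, but its call was lost in 3 of the 4 fits that left out 1 high or low library (edgeR adjusted p = 0.12, 0.113 and 0.0606) and against the vehicle (log2 difference 0.20, edgeR adjusted p = 0.178). SLC38A2, a relative of SLC38A1, had 336 and 353 CPM against 325 and 324 CPM, an interval of -0.14 to 0.31.

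Of the 17 cytosolic synthetases, which join each amino acid to its tRNA, 12 rose with Soshiho-tang and 0 fell. GARS1 (chromosome 7, 30594681 to 30634033, plus strand), for glycine, had the largest log2 fold change of the group, 0.98 ± 0.05 (edgeR adjusted p = 3.69e-20), with 378 and 380 CPM against 186 and 197 CPM. CARS1 (cysteine), AARS1 (alanine), MARS1 (methionine), YARS1 (tyrosine) and SARS1 (serine) rose between 1.51-fold and 1.62-fold. WARS1, TARS1, IARS1, EPRS1, NARS1 and LARS1, for tryptophan, threonine, isoleucine, glutamate with proline, asparagine and leucine, rose between 1.20-fold and 1.44-fold.

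The 5 that did not pass were HARS1, KARS1, QARS1, RARS1 and VARS1, for histidine, lysine, glutamine, arginine and valine. HARS1 had 83.8 and 82.7 CPM against 84.4 and 88.0 CPM, and its interval was -0.17 to 0.06. KARS1 (-0.16 to 0.03), QARS1 (-0.12 to 0.08) and RARS1 (-0.12 to 0.10) also had intervals around 0 that end below the change of every synthetase that rose. VARS1 lay close to the threshold (log2 fold change 0.12, edgeR adjusted p = 0.0588) and passed it with DESeq2 (adjusted p = 0.0436).

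Most synthetases of mitochondria are encoded by other genes, and the 17 listed here include none for glycine, lysine or glutamine. Of these 17 mitochondrial synthetases, 1 rose (VARS2, 1.19-fold from 21.7 and 21.0 to 25.2 and 25.6 CPM) and 1 fell (HARS2, log2 fold change -0.19) with Soshiho-tang, with a median of 0, near the 9.92% and 8.66% of all genes. The plot of synthetases shows the cytosolic and mitochondrial sets side by side.

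**Figure D2:**
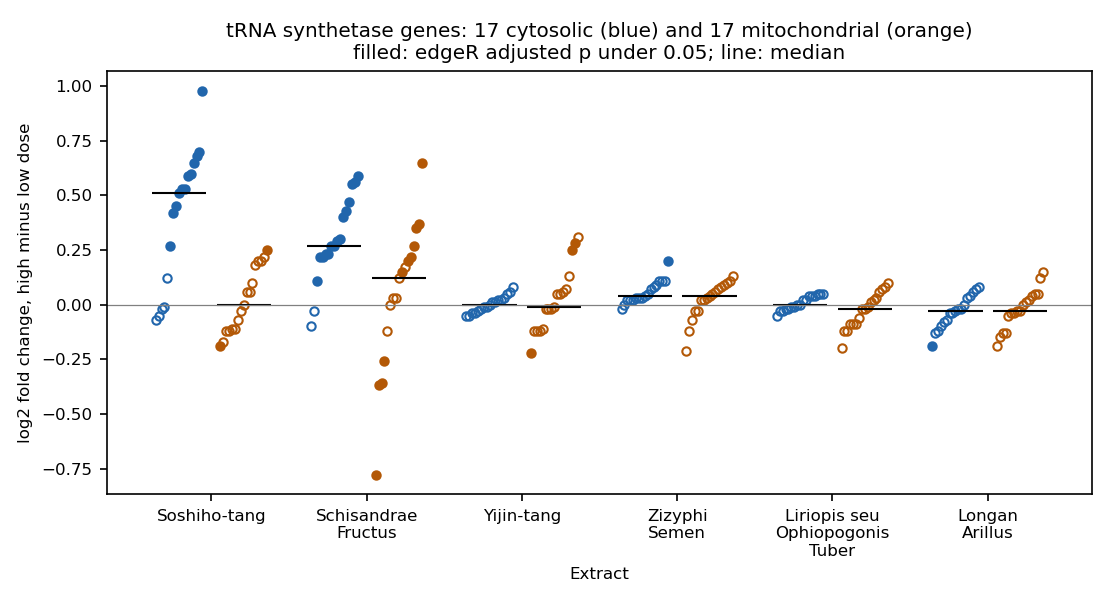
Log2 fold change from low to high dose (y axis) of 17 cytosolic (blue) and 17 mitochondrial (orange) synthetase genes in 6 extracts; each point is a gene, filled where the edgeR adjusted p was under 0.05, and the line is the median. With Soshiho-tang 12 blue points are filled against 2 orange points, 1 up and 1 down.

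The 4 further ATF4 targets moved less evenly. XPOT, which exports tRNA from the nucleus, rose 1.54-fold and EIF4EBP1, a brake on cap-dependent translation, rose 1.64-fold with Soshiho-tang. STC2, a secreted glycoprotein, rose 1.24-fold, but its low-dose mean of 344 CPM was the lowest of the 6 replicated extracts (up to 463 CPM), and against the vehicle its log2 difference was -0.05. VLDLR, a lipoprotein receptor, had 27.1 and 27.9 CPM against 26.6 and 24.9 CPM and did not pass.

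With Schisandrae Fructus the same comparison (310 against 12.4 µg/mL) raised 5 of 6 serine and one-carbon genes, all 8 other synthesis genes, 5 of 8 transporters, 15 of 17 cytosolic synthetases and all 4 further targets. ASNS had 116, 112 and 111 CPM against 53.7, 52.2 and 51.0 CPM (log2 fold change 1.11 ± 0.06, n = 3 per dose, edgeR adjusted p = 3.17e-19). PYCR1 had 155, 169 and 168 CPM against 84.1, 81.0 and 81.2 CPM (1.00 ± 0.05, edgeR adjusted p = 4.07e-20). For both genes all high libraries lay above all low ones. ALDH18A1, which did not pass with Soshiho-tang, rose here from 120, 115 and 118 CPM to 169, 163 and 164 CPM, so both steps of proline synthesis rose.

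The transporters were the least uniform role with Schisandrae Fructus. SLC6A9, SLC7A5 and SLC1A5 rose 1.64-fold, 1.62-fold and 1.57-fold, SLC3A2 rose 1.21-fold and SLC1A4 1.12-fold, the last without a call when high replicate 1 or low replicate 3 was left out (edgeR adjusted p = 0.176 and 0.0541). SLC38A2 fell, from 355, 365 and 342 CPM to 269, 218 and 221 CPM (log2 fold change -0.59 ± 0.09, edgeR adjusted p = 1.19e-06), with no overlap between the groups. SLC38A1 (119, 107 and 100 CPM against 107, 110 and 115 CPM) and SLC7A1 (log2 fold change -0.03, interval -0.22 to 0.17) did not pass.

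Among the synthetases GARS1 again had the largest log2 fold change, 0.59 ± 0.04, with 268, 278 and 289 CPM against 188, 180 and 187 CPM. AARS1, CARS1 and MARS1 rose 1.48-fold, 1.46-fold and 1.39-fold. KARS1 and RARS1 rose 1.21-fold and 1.23-fold and VARS1 1.17-fold. QARS1 rose 1.08-fold, a call lost in 4 of the 6 fits without 1 library (edgeR adjusted p from 0.0651 to 0.183). IARS1 and HARS1 did not pass (intervals -0.16 to 0.09 and -0.19 to -0.01). Of the 17 mitochondrial synthetases 7 rose and 4 fell, from TARS2 at 0.65 to WARS2 at -0.78 on the log2 scale, with a median of 0.12, where 22.3% of all genes rose and 23.6% fell.

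**Figure D3:**
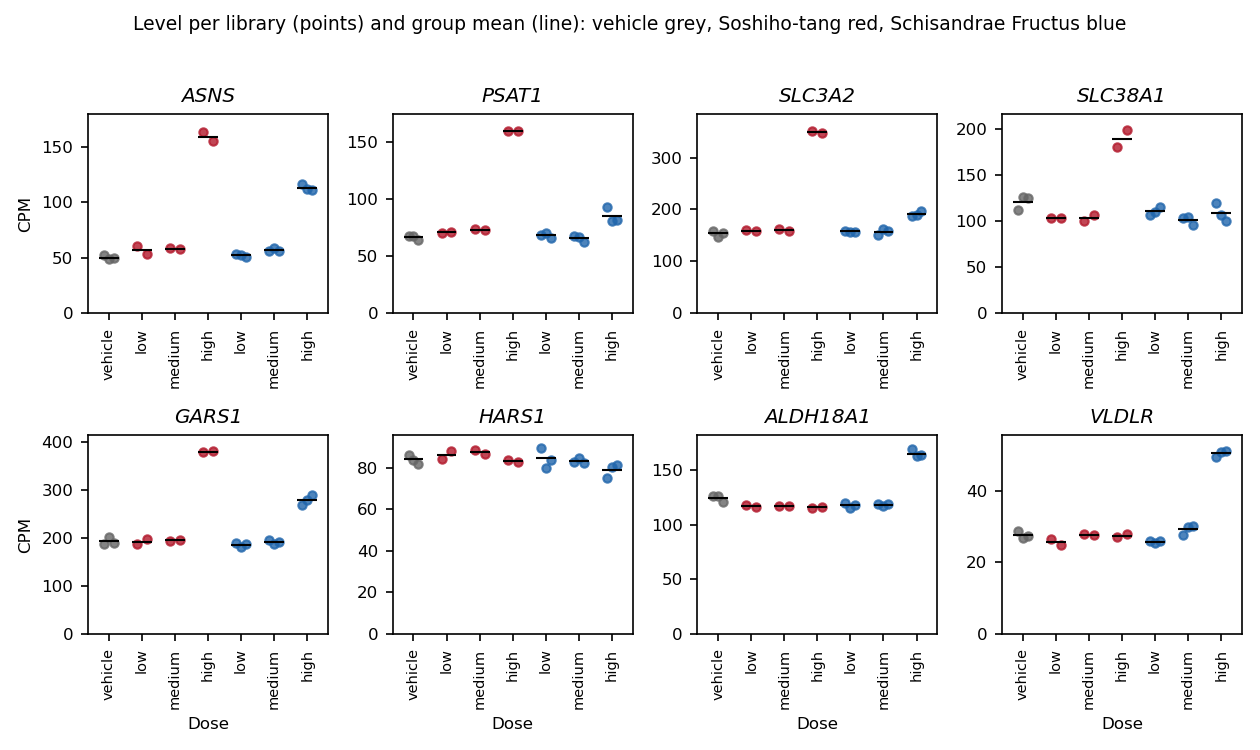
Level in CPM (y axis, from 0) of 8 genes in each library (points) with the group mean (line), for vehicle (grey, n = 3), Soshiho-tang (red, n = 2 per dose) and Schisandrae Fructus (blue, n = 3 per dose). ASNS, PSAT1, SLC3A2 and GARS1 step up at the high dose of both extracts, SLC38A1 at that of Soshiho-tang, ALDH18A1 and VLDLR at that of Schisandrae Fructus, and HARS1 stays between 75.3 and 89.6 CPM at every dose of both.

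The difference between both extracts was tested as a difference of the high minus low changes, although dose, solvent and library set differ and cannot be told apart from the extract. It passed for 29 of 43 genes, where the signed log2 fold change was higher in Soshiho-tang for 23 and lower for 6. Of all genes tested, 13.2% were higher and 10.9% lower. The 23 include SLC38A2 (0.67), which fell with Schisandrae Fructus and did not pass with Soshiho-tang. SLC38A1 (difference 0.90 ± 0.15 on the log2 scale, edgeR adjusted p = 1.44e-05), SLC3A2 (0.86 ± 0.10, edgeR adjusted p = 1.38e-08) and PSAT1 (0.85 ± 0.08, edgeR adjusted p = 2.42e-11) had the largest differences toward Soshiho-tang. VLDLR (-0.87), PYCR1 (-0.53), ALDH18A1 (-0.50), KARS1 (-0.34), RARS1 (-0.31) and SLC1A5 (-0.19) changed more with Schisandrae Fructus. The genes that rose with both numbered 31, which is 88.6% of the Soshiho-tang rises and 83.8% of the Schisandrae Fructus rises, and 28 of the 31 had the larger log2 fold change with Soshiho-tang. The count of 29 was 19 without low replicate 3 of Soshiho-tang.

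**Figure D4:**
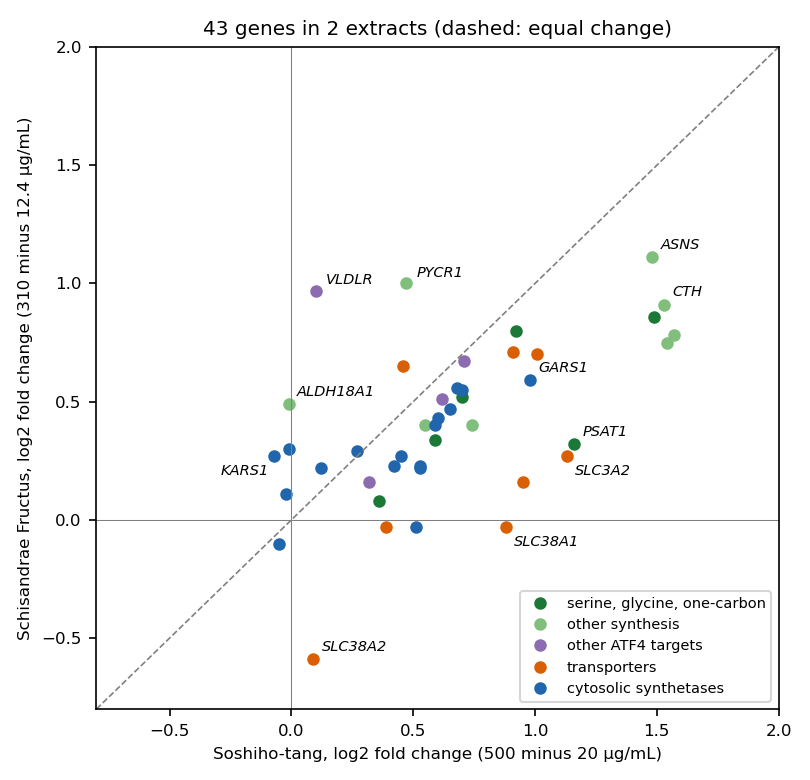
Log2 fold change from low to high dose with Soshiho-tang (x axis) and Schisandrae Fructus (y axis) for 43 genes coloured by role; the dashed line marks equal change. Most points lie below the line, and VLDLR, PYCR1 and ALDH18A1 lie farthest above it (Pearson r = 0.55 across these genes, which are not independent).

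Sensors and regulators of the response are genes outside the 43. Of 16 such sensors and regulators, 12 rose and 0 fell with Soshiho-tang, where 9.92% of all genes rose and 8.66% fell. With Schisandrae Fructus, where 22.3% of all genes rose and 23.6% fell, 9 of the 16 rose and 1 fell (ATF5, log2 fold change -0.39). The 16 include the eIF2α kinases EIF2AK1, EIF2AK2, EIF2AK3 (PERK) and EIF2AK4 (GCN2). Between Soshiho-tang and Yijin-tang the high minus low change differed for EIF2AK3 (0.85 ± 0.12 on the log2 scale, edgeR adjusted p = 1.63e-06). The difference did not pass for EIF2AK1 (0.05), EIF2AK2 (-0.24) or EIF2AK4 (0.13). ATF3, a transcription factor, TRIB3, a pseudokinase that binds ATF4, and CHAC1, a glutathione-degrading enzyme, had the largest rises with Soshiho-tang, 2.57 ± 0.16, 2.57 ± 0.09 and 2.21 ± 0.11 on the log2 scale. TRIB3 had 166 CPM in both high libraries against 28.8 and 27.2 CPM. With Schisandrae Fructus it had 68.2, 68.5 and 69.0 CPM against 26.1, 26.3 and 25.0 CPM. ATF4 mRNA, named after its values were seen, had 440 and 422 CPM against 161 and 155 CPM with Soshiho-tang and 184, 194 and 206 CPM against 140, 145 and 148 CPM with Schisandrae Fructus.

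Of 16 further transporters, 3 rose and 3 fell with Soshiho-tang, where 9.92% of all genes rose and 8.66% fell. SLC7A11, which imports cystine, rose from 96.3 CPM in both low libraries to 263 and 289 CPM (log2 fold change 1.52 ± 0.13), while the glial glutamate transporter SLC1A3 fell by 0.85 and SLC7A8 fell by 0.59. Of 19 further enzymes that passed the filter (20 listed), 5 rose and 6 fell. GCLC, the first enzyme of glutathione synthesis, rose by 0.97 ± 0.06, ASS1, which makes argininosuccinate, rose by 0.56 ± 0.13, and TYMS, which makes thymidylate with folate, fell by 0.45. With Schisandrae Fructus, where 22.3% of all genes rose and 23.6% fell, 4 of these transporters rose and 8 fell, led by SLC1A3 (-1.26), SLC43A1 (0.73) and SLC6A6 (0.72). Of the enzymes 6 rose and 7 fell, TYMS among them (log2 fold change -0.68).

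Yijin-tang, the other water extract, at the same doses and in the same library set as Soshiho-tang, changed 6 of the 43 genes, 2 up and 4 down (3.61% and 3.39% of all genes), with a median log2 fold change of -0.01. STC2 fell from 448, 448 and 446 CPM to 387, 381 and 384 CPM (log2 fold change -0.22 ± 0.04, edgeR adjusted p = 2.26e-05), without overlap. SLC38A2 (-0.34), SLC1A4 (-0.23) and PSAT1 (-0.16) also fell, and SLC7A5 and SLC6A9 rose 1.17-fold each. Of these 6, STC2 alone passed in every fit without 1 library, and PSAT1, SLC7A5 and SLC6A9 lost their calls in 5 of the 6 such fits. Without the count filter PSAT1 and SLC1A4 lost their calls (edgeR adjusted p = 0.332 and 0.0851). Against the vehicle PSAT1 did not pass (edgeR adjusted p = 0.229). ASNS (interval -0.06 to 0.18), PHGDH (-0.22 to 0.09) and GARS1 (-0.09 to 0.07) did not pass. The high minus low change was larger with Soshiho-tang than with Yijin-tang for 33 of the 43 genes and smaller for 0, where 5.1% of all genes were larger and 4.3% smaller. CTH (difference 1.74 ± 0.15), CBS (1.51 ± 0.15), ALDH1L2 (1.45 ± 0.19) and ASNS (1.42 ± 0.09) differed most.

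Longan Arillus lowered 5 of the 43 and raised 0, where 0.594% of all genes fell and 0.342% rose, and the median was -0.08. PSAT1 fell from 63.4, 63.0 and 66.4 CPM to 50.3, 54.2 and 48.6 CPM (log2 fold change -0.34 ± 0.05, edgeR adjusted p = 0.000149), with no overlap. ASNS fell from 49.2, 49.8 and 57.1 CPM to 44.7, 44.1 and 41.7 CPM (-0.26 ± 0.06, edgeR adjusted p = 0.0226). SLC7A5 (-0.27), SLC1A4 (-0.27) and AARS1 (-0.19) fell as well, so the 5 hold members of synthesis, transport and charging. PSAT1 and AARS1 passed in each of the 6 fits without 1 library, the other 3 did not, and 2 falls were left without high replicate 3. Without the count filter AARS1 and SLC1A4 lost their calls (edgeR adjusted p = 0.218 and 0.0536). In addition, 0 of the 5 passed when the fit held the compared groups alone (PSAT1 edgeR adjusted p = 0.0833). That fit called 6 falls and 4 rises among 16044 genes, against 106 and 61 among 17851 in the main fit.

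Zizyphi Semen raised 5 of the 43 and lowered 0 (2.02% and 3.76% of all genes), with a median of 0.11. STC2 rose from 471, 473 and 445 CPM to 563, 565 and 561 CPM (log2 fold change 0.28 ± 0.04, edgeR adjusted p = 4.96e-07). VLDLR and SLC6A9 rose 1.24-fold each, and SLC1A5 and VARS1 1.15-fold each. Against the vehicle VLDLR and VARS1 each had a log2 difference of 0.09 and did not pass (edgeR adjusted p = 0.336 and 0.0875). SLC6A9 had 55.6, 67.9 and 59.4 CPM against 45.9, 53.1 and 47.7 CPM, without overlap, but its call was lost without high replicate 2 (edgeR adjusted p = 0.0977). ASNS, with 60.3, 53.6 and 58.6 CPM against 60.8, 52.6 and 52.1 CPM, overlapped and did not pass. The count of rises was 1 (STC2) when the fit held the compared groups alone and 11 with DESeq2. Over all genes, 49 of 15669 and 476 of 17851 rose in these fits, against 360 of 17851 in the main fit.

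Against Zizyphi Semen, which shares its solvent, doses and library set, the high minus low change of Longan Arillus was lower for 14 of the 43 genes and higher for 0, where 1.41% of all genes were lower and 2.55% higher. The largest differences were SLC38A1 (-0.65 ± 0.14, edgeR adjusted p = 0.00224), SLC7A5 (-0.47 ± 0.10, edgeR adjusted p = 0.00181), SLC1A4 (-0.46 ± 0.09) and PSAT1 (-0.44 ± 0.07). The count was 6 when the fit held these groups alone, 8 without the count filter and 8 without low replicate 3 of Zizyphi Semen. Over all genes, 93 of 16424 were lower and 266 higher with these groups alone. Without the count filter 195 of 38487 were lower and 528 higher.

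Liriopis seu Ophiopogonis Tuber changed 0 of the 43 genes, as it changed 0% of all genes by edgeR. At an unadjusted p under 0.05, 2 members and 463 genes passed, and DESeq2 called 0 members and 1 gene. ASNS stood at 53.9, 55.2 and 55.0 CPM at the high dose and 58.0, 54.5 and 51.0 CPM at the low dose. The intervals of ASNS (-0.12 to 0.13), PHGDH (-0.12 to 0.20), SLC7A5 (-0.02 to 0.25) and GARS1 (-0.03 to 0.13) exclude changes of the size seen with Soshiho-tang.

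No rise was found at the medium doses. Medium against low changed 0 of the 43 genes in each of the 6 replicated extracts by edgeR and by DESeq2, and 1 to 4 members per extract passed an unadjusted p of 0.05, as did 2.63% to 7.28% of all genes. Of all genes tested, edgeR called 0.0224% with Yijin-tang, 0.0112% with Soshiho-tang, 0.0392% with Schisandrae Fructus and 0% with the other 3. With Soshiho-tang at 100 µg/mL ASNS had 58.5 and 57.5 CPM, PSAT1 73.5 and 72.5 CPM and GARS1 194 and 196 CPM, each near the low-dose values. TRIB3 had 30.5 and 31.1 CPM at that dose. Among the low doses of the 6 replicated extracts the mean of a member differed by at most 1.34-fold (STC2), and by 1.29-fold at most for the others (CTH).

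Against the vehicle, whose 3 libraries form a set of their own, 33 members rose and 1 fell with the high dose of Soshiho-tang (14.2% and 16.2% of all genes), and 37 rose and 2 fell with Schisandrae Fructus (23.4% and 26.7%). ASNS had 52.1, 48.5 and 49.9 CPM in the vehicle and PSAT1 67.2, 67.8 and 64.2 CPM, close to the low doses. The high dose of Longan Arillus had 15 members below the vehicle and 1 above (10.3% and 5.61% of all genes), and that of Zizyphi Semen 1 below and 8 above (7.97% and 5.3%). Yijin-tang had 7 below and 3 above (11.7% and 8.02%) and Liriopis seu Ophiopogonis Tuber 1 below and 1 above (2.67% and 1.42%). At the medium doses the members that differed from the vehicle numbered 15 with Longan Arillus (25.2% of all genes), 5 with Liriopis seu Ophiopogonis Tuber (13%), 4 with Yijin-tang (14.2%), 2 with Zizyphi Semen (14.4%), 1 with Soshiho-tang (4.2%) and 0 with Schisandrae Fructus (5.39%). Per length of exon, the vehicle levels ran from 93.1 RPKM (CPM per kilobase of exon) for SLC1A5 and 72.0 for STC2 to 2.72 for CTH and 1.16 for CBS, so the genes that rose most with Soshiho-tang included the least expressed of the 43.

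Polygalae Radix and Aucklandiae Radix had 1 library per dose, so these differences have no replicate check and no test. In the library labelled high dose of Aucklandiae Radix, 6 of the 43 were at least 2-fold above the low dose and 0 at least 2-fold below, where 4.9% and 9.48% of all genes were. ASNS was at 168 against 50.2 CPM, SLC3A2 at 648 against 175 CPM and PSAT1 at 154 against 58.5 CPM. CBS, PCK2 and GARS1 (413 against 202 CPM) were the other 3. ALDH18A1 (74.0 against 107 CPM) and SLC38A2 (197 against 282 CPM) were lower, as SLC38A2 was with Schisandrae Fructus.

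In the library labelled high dose of Polygalae Radix the order was turned round. Of the 43, 0 were at least 2-fold higher and 26 at least 2-fold lower, where 9.87% and 13.9% of all genes were, and the median log2 difference was -1.30 against 0.02 over all genes. ASNS was at 12.5 against 58.7 CPM, PHGDH at 5.49 against 38.9 CPM and EPRS1 at 25.6 against 163 CPM, and 14 of the 17 cytosolic synthetases were at least 2-fold lower. Of the 8 transporters 3 were above the low dose, by less than 2-fold, and 2 were at least 2-fold lower, with a median log2 difference of -0.06. SLC3A2 was at 289 against 193 CPM and SLC38A1 at 118 against 80.9 CPM, while SLC6A9 was at 13.6 against 42.2 CPM and SLC1A5 at 139 against 279 CPM. CBS was at 0.476 against 6.71 CPM, but its copy CBSL took 77 counts in this library against 15 for CBS, and with both copies summed the values were 2.92 and 6.85 CPM.

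ATF4 mRNA was higher in that library (311 against 175 CPM) while TRIB3 (16.4 against 29.9 CPM) and CHAC1 (2.38 against 8.21 CPM) were lower. Of all 16 sensors and regulators, 10 were above the low dose, with a median log2 difference of 0.14. At least 2-fold higher were 2 of the 16 and at least 2-fold lower 1, where 9.87% and 13.9% of all genes were. The same library had the highest mitochondrial share of counts of all 60, 20.3%, and VIM, the most abundant marker, was at 635 against 5450 CPM, and their part in the lower values was not tested. At the medium doses of both extracts 0 of the 43 were 2-fold different, where 1.84% of all genes were higher and 1.8% lower with Polygalae Radix and 1.83% and 2.69% with Aucklandiae Radix.

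**Figure D5:**
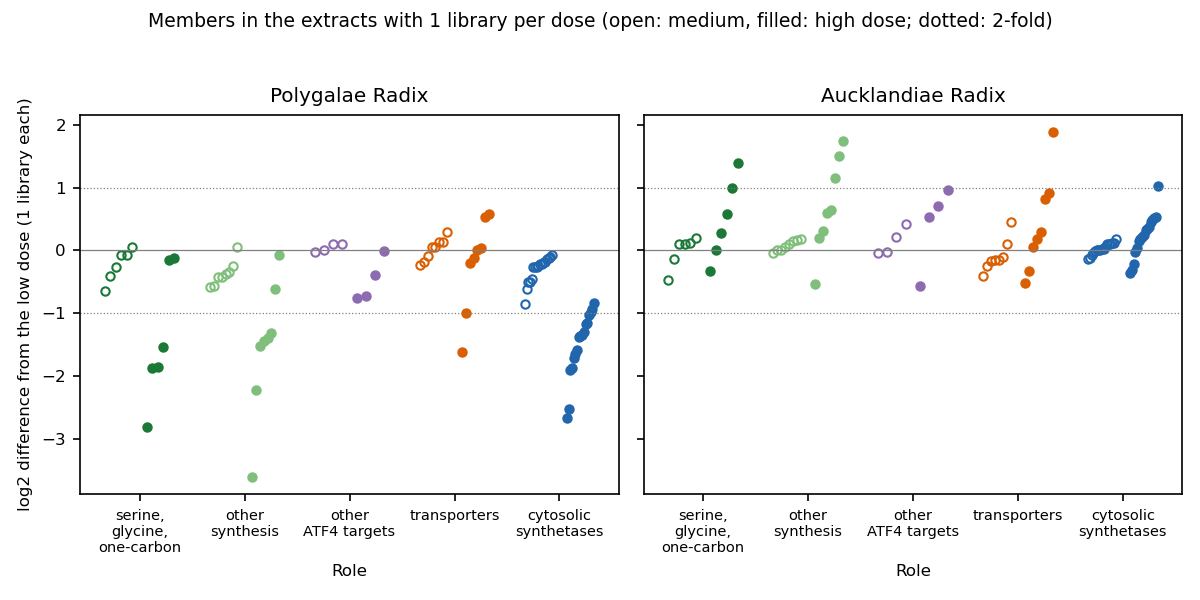
Log2 difference from the low dose (y axis) for the 43 genes by role in Polygalae Radix (left) and Aucklandiae Radix (right), 1 library per dose; open points are the medium dose, filled points the high dose and dotted lines 2-fold. Filled points reach -3.61 on the left and 1.89 on the right, with the synthetases between -2.67 and -0.83 on the left.

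The promoter motif can be set beside the Soshiho-tang result. Of the 35 members that rose, 27 had a window and 14 of these held TGATGNAA, and of the 8 that did not rise, 7 had a window and 0 held it. By the Schisandrae Fructus calls the split ran the other way: 11 of the 29 that rose with a window held it, and 3 of the 5 that did not rise (SLC7A1, SLC38A1 and IARS1). Among cytosolic synthetases with a window, 7 of 10 that rose with Soshiho-tang held it and 0 of 4 that did not rise. The Schisandrae Fructus calls do not follow this split. There IARS1 holds the motif and did not rise, while KARS1, QARS1 and RARS1 lack it and rose. Among mitochondrial synthetases 1 of 14 (YARS2) held it. In ASNS, whose stretch is shown above, the motif begins at position -68 from the start, in GARS1 at -33 and in AARS1 at -187. The other motifs shown lie at or past the start, beginning at -7 (SLC1A4), -4 (SLC38A1 and MARS1), 2 (TARS1) and 37 (SLC3A2). PSAT1, PHGDH, PCK2 and CTH rose, and their windows do not hold these letters.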

How the data were processed

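Expected counts per gene were deposited by the authors, and the tools FastQC 0.11.9, Trim Galore 0.6.5, STAR 2.7.3a and RSEM 1.3.3 and the build GRCh38 (hg38) are named per the submitters' processing notes. Library preparation was directional per the labels' protocols, while for the counting step neither strand setting nor annotation release is stated (not given in the sources used here). Values were not whole in 10.86% of table entries and were rounded. A single fit in edgeR 4.0.16 (R 4.3.3, limma 3.58.1; filterByExpr, TMM, quasi-likelihood test) took in all 19 groups with replicates, 54 libraries, with Benjamini-Hochberg adjustment over 17851 genes and a threshold of 0.05. Standard errors were taken as the log2 fold change over the root of F, and intervals are 2 SE either side. Extracts with 1 library per dose were described by CPM, with log2 differences at a prior count of 2 and a fold of at least 2. Gene positions are from GENCODE 29.

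The genes named were, per comparison and role, up to 4 with the largest absolute log2 fold change past the threshold. Up to 3 were named per further list, and ASNS, PHGDH, SLC7A5 and GARS1 throughout. Other members are named to account for all 43. Those members, ATF4, the eIF2α kinases and CBSL were chosen after their values were seen. Members and lists were chosen with earlier results of these data known. Alternatives were another normalization, no count filter, only the groups compared, DESeq2 1.42.0, a replicate block, the vehicle as reference and leaving out each library. On simulated counts of 17851 genes for Soshiho-tang, 63 of 100 changes of 1.5-fold and 70 of 100 of 2-fold were recovered, with 4 false among 137 calls. For Schisandrae Fructus 69 and 81 were recovered, with 8 false among 158 calls. The simulation changed fewer genes than were called in the data and gave genes of like level a like spread. Its rates may therefore not hold for the data. Results for some genes of the further lists are not reported here.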

Additional observations from a re-analysis of the deposited data

Results flagged for a closer look

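The change from low to high dose differed between extracts, by a test of the difference itself in edgeR, for 33 of the 43 genes between Soshiho-tang and Yijin-tang, for 14 between Longan Arillus and Zizyphi Semen, and for 29 between Soshiho-tang and Schisandrae Fructus. The first 2 pairs share solvent, doses and library set, and the last pair shares none of them.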

How the results depend on the processing

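Leaving out 1 library at a time gave 34 to 35 rises and 0 falls with Soshiho-tang, 35 to 37 rises and 1 to 2 falls with Schisandrae Fructus, 0 to 2 rises and 1 to 3 falls with Yijin-tang, 2 to 5 falls with Longan Arillus, 5 to 7 rises with Zizyphi Semen and 0 with Liriopis seu Ophiopogonis Tuber. The differing genes numbered 31 to 34 for Soshiho-tang against Yijin-tang, 8 to 14 for Longan Arillus against Zizyphi Semen and 19 to 26 for Soshiho-tang against Schisandrae Fructus. With the vehicle in place of the low dose, falls were 7 with Yijin-tang, 1 with Soshiho-tang, 2 with Schisandrae Fructus, 15 with Longan Arillus, 1 with Zizyphi Semen and 1 with Liriopis seu Ophiopogonis Tuber. Rises were then 8 with Zizyphi Semen, 1 with Longan Arillus and 1 with Liriopis seu Ophiopogonis Tuber. Members that differed either way at the medium dose were 4 with Yijin-tang, 1 with Soshiho-tang, 5 with Liriopis seu Ophiopogonis Tuber, 15 with Longan Arillus and 2 with Zizyphi Semen. Fitting only the groups compared gave 0 falls with Longan Arillus, 1 rise with Zizyphi Semen and 6 differing genes between them. Without the count filter 8 differed, and DESeq2 gave 11 rises with Zizyphi Semen. Over all genes, fitting only the groups compared gave 6 falls with Longan Arillus and 49 rises with Zizyphi Semen, and DESeq2 gave 476 rises there. The cause of these shifts was not tested.

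Signs turned only for log2 differences that did not pass under the alternative. Against the vehicle they were 0.02 (PHGDH, Yijin-tang), -0.05 (STC2, Soshiho-tang), -0.02 (SLC7A5) and -0.01 (GARS1), the last pair with Liriopis seu Ophiopogonis Tuber. Without 1 library, GARS1 with Yijin-tang ran from -0.03 to 0.00082, ASNS with Liriopis seu Ophiopogonis Tuber from -0.03 to 0.05, PHGDH there from -0.01 to 0.09 and PHGDH with Zizyphi Semen from -0.01 to 0.06.

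Deviations of same-numbered high and low libraries from their group means had correlations from -0.05 to 0.1. With means of only 2 or 3 libraries, these values cannot decide whether the numbers pair the libraries. With a replicate block Yijin-tang had 1 rise. Soshiho-tang had 2 libraries per dose, and extracts with 1 library per dose have no error. Expected counts of near-identical genes such as CBS and CBSL can be split between copies.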
